A study of Mus musculus with 6 samples.

Results

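The genes described here encode 10 transcription factors of the ETS family, *Elf1*, *Elf2*, *Elf4*, *Ets1*, *Ets2*, *Spi1*, *Fli1*, *Elk3*, *Gabpa*, and *Erg*. They were taken by symbol from the 48440 rows of the read count table, and all 10 were found and passed the filter on low counts. RNA sequencing was done on microinjected L3/4 dorsal root ganglia (DRGs) of WT male mice, which make up 2 groups with 3 libraries each. DRGs of the first group were microinjected with AAV5-*Gfp*, an adeno-associated virus that carries the gene of green fluorescent protein. Those of the second received AAV5-*V1* together with AAV5-*V2* (labelled AAV5-NIS V1 and V2, here AAV5-*V1+V2*), which express the variants of the long noncoding RNA *NIS-lncRNA*. The submitters' text gives tissue collection at 5 weeks and also speaks of a comparison at 4 weeks after microinjection. Every DRG was thus injected with an AAV5, and no uninjected DRG was sequenced in these libraries. Neither the age of the mice, the promoter in the vectors, nor the number of mice behind each library is given in the sources used here, so p-values measure only the spread between these libraries. Because each group received its own virus preparation, the preparation and the transcripts it carried cannot be told apart.

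ETS factors share a DNA-binding domain, the ETS domain, which recognizes a GGAA core, and they differ in the cells that express them and in the proteins with which they bind. PU.1, encoded by *Spi1*, is required for macrophages and B cells, whereas ETS1 is best known from lymphocytes and endothelium, and ERG and FLI1 from endothelium and blood cells. GABPα, encoded by *Gabpa*, is expressed in most cells and acts on genes for mitochondrial proteins. ELF1 is the factor that the study places upstream of *NIS-lncRNA* after nerve injury. The sequencing was done to find genes downstream of *NIS-lncRNA*, so that the values below describe *Elf1* and its relatives when *NIS-lncRNA* was delivered by a virus rather than induced by injury.

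All coordinates are those of GRCm38, with genes from GENCODE M21. *Elf1* lies on chromosome 14 (79481194 to 79582494), *Elf2* on chromosome 3 (51252720 to 51340663), *Elf4* on chromosome X (48411046 to 48463132), *Spi1* on chromosome 2 (91082390 to 91115756), and *Elk3* on chromosome 10 (93247414 to 93311135). *Ets1* and *Fli1* are neighbours on chromosome 9, at 32636221 to 32757820 and 32422204 to 32542861, with 93.4 kb between them. *Ets2* and *Erg* are neighbours on chromosome 16, at 95702075 to 95721051 and 95359169 to 95586593, with 115.5 kb between them, and *Gabpa* is on the same chromosome at 84834925 to 84863779. Exons of 4 members overlap exons of a gene on the opposite strand. These are *Elf1* with *Wbp4* (327 bases), *Elf2* with *4930577N17Rik* (371 bases), *Elk3* with *Cdk17* (316 bases), and *Gabpa* with *Atp5j* (397 bases). The libraries were stranded, but whether strand was used in the counting is not given, and reads of these stretches are uncertain to that extent. *4930577N17Rik* had 0 counts in all 6 libraries. The log2 fold changes of the others were -0.19 for *Wbp4*, 0.33 for *Cdk17*, and 0.012 for *Atp5j*, none of which passed the threshold used below.

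Promoter windows, from 250 bases before to 50 after a start site, were listed by RefSeq (GRCm38.p6) for 7 of the 10 members, and not for *Ets1*, *Spi1*, or *Fli1*. Of these, 3 first-listed windows are printed, those of *Elf1* as the factor under study, of *Elf4* as its close relative with the larger change, and of *Gabpa* as the broadly expressed member. Capitals mark each GGAA core on either strand (TTCC on the other). The *Elf1* window is on the plus strand of chr14:79480944-79481243, that of *Elf4* on the minus strand of chrX:48463083-48463382, and that of *Gabpa* on the plus strand of chr16:84834874-84835173.
Elf1: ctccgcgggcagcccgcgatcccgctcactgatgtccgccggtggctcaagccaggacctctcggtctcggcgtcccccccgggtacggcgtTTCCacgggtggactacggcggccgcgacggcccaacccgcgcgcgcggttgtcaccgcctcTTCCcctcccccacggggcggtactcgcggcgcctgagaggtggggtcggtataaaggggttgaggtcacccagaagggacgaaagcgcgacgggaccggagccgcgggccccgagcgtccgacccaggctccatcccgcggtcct
Elf4: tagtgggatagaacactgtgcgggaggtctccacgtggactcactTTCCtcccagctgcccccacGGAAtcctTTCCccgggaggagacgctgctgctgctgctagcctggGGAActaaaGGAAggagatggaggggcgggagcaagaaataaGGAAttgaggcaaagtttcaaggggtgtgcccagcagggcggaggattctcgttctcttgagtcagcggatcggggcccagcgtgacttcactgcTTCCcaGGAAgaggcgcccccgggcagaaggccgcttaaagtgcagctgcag
Gabpa: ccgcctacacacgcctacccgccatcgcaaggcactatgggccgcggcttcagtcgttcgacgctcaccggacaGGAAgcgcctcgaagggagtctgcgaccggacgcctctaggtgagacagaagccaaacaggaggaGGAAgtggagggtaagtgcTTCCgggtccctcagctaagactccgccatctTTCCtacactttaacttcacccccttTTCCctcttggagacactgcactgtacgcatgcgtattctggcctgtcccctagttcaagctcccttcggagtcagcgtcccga
The core was present 2 times in the *Elf1* window, 8 times in that of *Elf4*, and 5 times in that of *Gabpa*. RefSeq lists 1 more window for *Elf1*, which held 1, and 1 more for *Elf4*, which held 2. Over all 32851 windows the median was 3, and 96% of them held at least 1. The longer motifs CCGGAAG, a site type bound by many ETS factors, and GAGGAAG, a type bound by PU.1 and the ELF factors, were searched on both strands in all windows of the 7 members. Both contain the core, but they do not overlap with each other at the matches found. *Gabpa* held 1 match to each, at 93 and 113 bases before the start site (first base of the match), and the other 6 genes held none. Of all windows, 8.86% held CCGGAAG and 13.6% held GAGGAAG, so these letters are a description of the windows and not of binding.

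Total counts were from 32025612 to 34764282 for the 6 libraries. Counts were normalized by TMM, expressed as CPM (reads of a gene scaled to the size of its library), and tested with edgeR's quasi-likelihood test over 18593 genes. The threshold was an adjusted p (Benjamini-Hochberg) under 0.05. In the AAV5-*V1+V2* DRGs, 6 of the 10 members rose (*Elf4*, *Spi1*, *Ets1*, *Fli1*, *Elk3*, and *Elf2*), and 0 fell, whereas 10.1% of all genes tested were higher and 5.27% lower by the same rule (15.3% in either direction). At an unadjusted p under 0.05, 8 members were higher and 0 lower, against 19.2% and 15.5% of all genes tested. For 8 of the 10, all AAV5-*V1+V2* values lay above all AAV5-*Gfp* values, compared with 23.4% of all genes tested (22.0% lay below, 45.4% in either direction). The median log2 fold change was 0.61 over the 10 members and -0.0003 over all genes tested. The calls depended on the AAV5-*Gfp* libraries. Without AAV5-*Gfp* replicate 1, 2, or 3, the number of members that passed was 0 in each case, although 6, 6, and 7 were higher at an unadjusted p under 0.05. Calls were lost over all genes in these fits, with 257, 12, and 15 genes higher in all. The log2 fold changes stayed of like size, from 1.68 to 1.85 for *Spi1* and from 1.26 to 1.42 for *Ets1*. DRGs hold many cell types, and more cells of a type cannot be told apart from more RNA per cell.

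**Figure D1:**
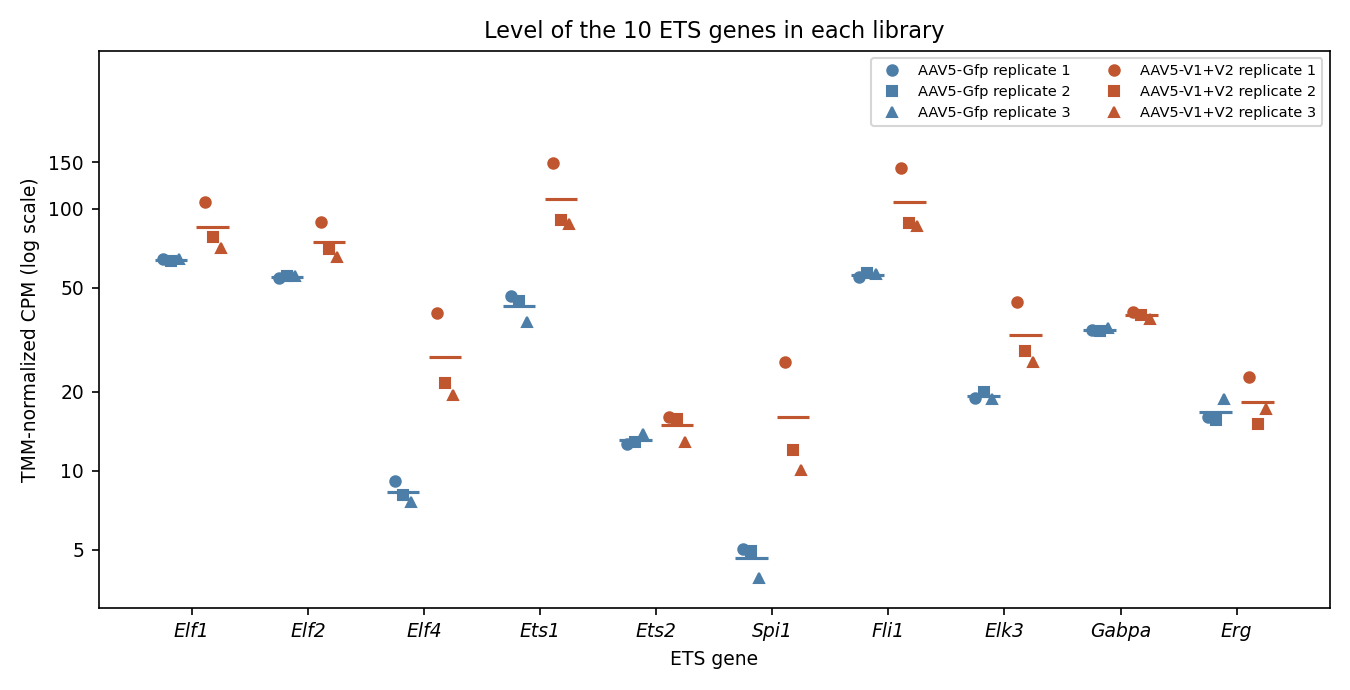
TMM-normalized CPM (log axis) of the 10 ETS genes in each library, with a symbol for each replicate and a line at the mean of 3 libraries. Replicate 1 of AAV5-*V1+V2* is the highest library for each gene, and the groups overlap only for *Ets2* and *Erg*.

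The ELF subfamily was measured first. *Elf1* was counted at 64.5, 63.0, and 64.2 CPM in the AAV5-*Gfp* libraries, against 106, 78.1, and 70.8 CPM in the AAV5-*V1+V2* libraries (here and below in the order of replicates 1, 2, and 3). The AAV5-*Gfp* libraries lay within 1.02 times of each other, and all AAV5-*V1+V2* libraries were above them, with replicate 1 far above the other two. The means were 63.9 ± 0.768 CPM (SD, n = 3) and 85.1 ± 18.8 CPM (SD, n = 3). The log2 fold change of 0.41 (standard error, SE, 0.14, 95% interval 0.016 to 0.81) did not pass the threshold, with an adjusted p of 0.0898 and an unadjusted p of 0.0221 from edgeR's quasi-likelihood test. *Elf1* passed in DESeq2 (adjusted p = 0.0448) and in edgeR's test without AAV5-*V1+V2* replicate 1 (adjusted p = 0.0397) or replicate 3 (adjusted p = 0.0310). These were 3 of 13 alternative fits. In limma-voom the adjusted p of *Elf1* was 0.103. In edgeR's test it was 0.118 without AAV5-*V1+V2* replicate 2, and from 0.185 to 0.214 without any one AAV5-*Gfp* library. The log2 fold change of *Elf1* was 0.22 without AAV5-*V1+V2* replicate 1, the library that was highest. *Elf1* was thus higher in 3 of 3 AAV5-*V1+V2* libraries, but it did not pass the threshold after adjustment over all genes tested.

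*Elf2* encodes a relative of ELF1 that is expressed in many cells. It had 54.1, 55.5, and 55.4 CPM in the AAV5-*Gfp* libraries, against 88.7, 70.2, and 65.4 CPM in the AAV5-*V1+V2* libraries. The groups did not overlap, and the log2 fold change of 0.44 (SE 0.11) was close to that of *Elf1*, but here it passed the threshold (adjusted p = 0.0414 from edgeR's test). In limma-voom the adjusted p of *Elf2* was 0.0507, and without AAV5-*V1+V2* replicate 2 it was 0.0734 in edgeR's test. The difference between *Elf2* and *Elf1* on the log2 CPM scale was -0.22 on average with AAV5-*Gfp* compared to -0.18 with AAV5-*V1+V2*, with an exact two-sided permutation p of 0.5. With 3 libraries against 3, this test cannot go below 0.1, so whether the changes of *Elf2* and *Elf1* differ is not settled by it.

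*Elf4*, also known as MEF, encodes a factor with roles in natural killer and T cells. It had 9.17, 8.05, and 7.63 CPM in the AAV5-*Gfp* libraries, against 40.1, 21.6, and 19.5 CPM in the AAV5-*V1+V2* libraries. Every AAV5-*V1+V2* library held more than 2 times the highest AAV5-*Gfp* library. The log2 fold change was 1.71 (SE 0.27, 95% interval 0.95 to 2.47, adjusted p = 0.0156 from edgeR's test), or 3.27-fold. Relative to *Elf1*, *Elf4* moved from a mean log2 difference of -2.95 with AAV5-*Gfp* to -1.71 with AAV5-*V1+V2*, a shift of 1.24. This pair, like those below, was chosen after the values were seen, and its exact two-sided permutation p of 0.1 is the smallest that 3 libraries against 3 allow.

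The next members are factors of leukocytes. *Spi1* was counted at 5.05, 4.96, and 3.91 CPM with AAV5-*Gfp*, against 26.1, 12.0, and 10.03 CPM with AAV5-*V1+V2*. In reads these were 163, 172, and 122 against 858, 400, and 344. The log2 fold change of 1.79 (SE 0.36, 95% interval 0.79 to 2.79, adjusted p = 0.0237 from edgeR's test) was the highest of the 10 members, and 96.5% of all genes tested had a lower one. Without AAV5-*V1+V2* replicate 1 it was 1.25, and *Spi1* still passed.

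*Ets1* had 46.4, 44.6, and 37.0 CPM in the AAV5-*Gfp* libraries, against 149, 90.8, and 87.2 CPM in the AAV5-*V1+V2* libraries. Its log2 fold change was 1.35 (SE 0.21, 95% interval 0.76 to 1.94, adjusted p = 0.0149 from edgeR's test), the smallest adjusted p of the 10. *Ets2*, the paralog of *Ets1*, is a target of Ras and MAP kinase signalling. It had 12.7, 12.9, and 13.8 CPM in the AAV5-*Gfp* libraries, against 16.1, 15.7, and 12.9 CPM in the AAV5-*V1+V2* libraries. The groups of *Ets2* overlapped, since AAV5-*V1+V2* replicate 3 lay within the AAV5-*Gfp* range, and its log2 fold change of 0.18 (95% interval -0.12 to 0.48) did not pass (adjusted p = 0.268 from edgeR's test). The log2 difference of *Ets1* over *Ets2* was 1.69 on average with AAV5-*Gfp* compared to 2.83 with AAV5-*V1+V2*, with no overlap between groups (exact permutation p = 0.1, two-sided).

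*Fli1* and *Erg* encode close paralogs. *Fli1* had 55.0, 56.6, and 56.3 CPM in the AAV5-*Gfp* libraries, against 143, 87.7, and 86.0 CPM in the AAV5-*V1+V2* libraries. Its log2 fold change was 0.92 (SE 0.19, 95% interval 0.38 to 1.45, adjusted p = 0.0262 from edgeR's test). *Erg* had 16.1, 15.6, and 18.7 CPM in the AAV5-*Gfp* libraries, against 22.8, 15.1, and 17.2 CPM in the AAV5-*V1+V2* libraries. Both the lowest and the highest library of *Erg* received AAV5-*V1+V2*, and the log2 fold change of 0.13 (95% interval -0.32 to 0.57, adjusted p = 0.604 from edgeR's test) turned to -0.055 without replicate 1. *Fli1* over *Erg* moved from a mean log2 difference of 1.74 to 2.51, again with no overlap between groups (exact permutation p = 0.1, two-sided).

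*Elk3* encodes a ternary complex factor that binds with serum response factor and is known from vessels and wound repair. It had 19.0, 19.9, and 18.7 CPM in the AAV5-*Gfp* libraries, against 43.9, 28.6, and 26.1 CPM in the AAV5-*V1+V2* libraries, a log2 fold change of 0.77 (SE 0.19, adjusted p = 0.0370 from edgeR's test). Without AAV5-*V1+V2* replicate 2 the adjusted p of *Elk3* was 0.0600 in the same test. *Gabpa* had 34.5, 34.1, and 34.99 CPM in the AAV5-*Gfp* libraries, against 40.3, 39.2, and 38.0 CPM in the AAV5-*V1+V2* libraries. Its libraries lay within 1.06 times of each other in each group, and the groups did not overlap, yet the log2 fold change was only 0.18 (95% interval 0.011 to 0.35) and did not pass (adjusted p = 0.0849 from edgeR's test). Scaled by total counts only, *Gabpa* passed (log2 fold change 0.24, adjusted p = 0.0466 in edgeR's test).

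**Figure D2:**
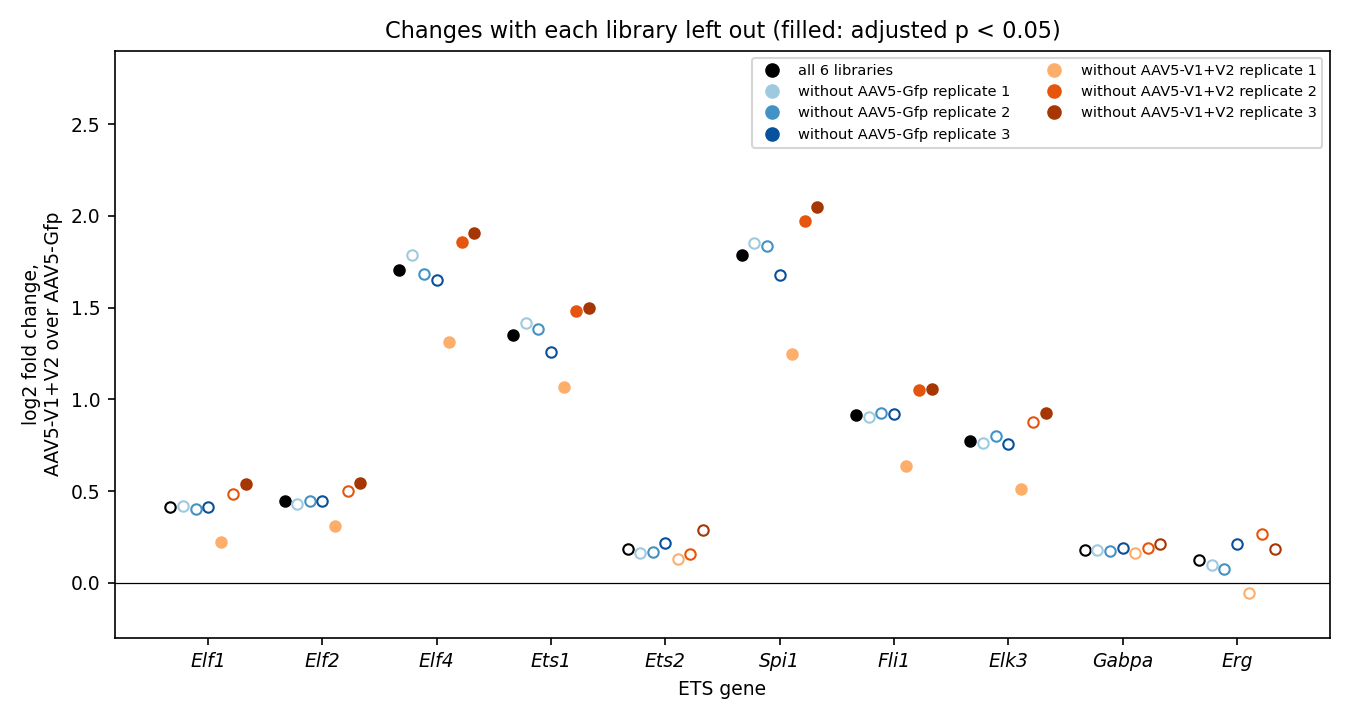
Log2 fold change (AAV5-*V1+V2* over AAV5-*Gfp*) of the 10 ETS genes with all 6 libraries and with each one left out. Filled points had an adjusted p under 0.05, and none is filled where an AAV5-*Gfp* library was left out, where the values kept their sign. Values without AAV5-*V1+V2* replicate 1 are the lowest of each gene, at 1.25 for *Spi1* and -0.055 for *Erg*.

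Between genes, levels were compared only as CPM per kilobase of exon length. With AAV5-*Gfp* the order was *Fli1* (16.1 CPM per kb), *Elf1* (9.48), *Gabpa* (6.07), *Elf2* (5.75), *Ets1* (5.03), *Erg* (4.85), *Elk3* (4.22), *Ets2* (2.27), *Spi1* (1.72), and *Elf4* (1.35). In that order, the ranges over libraries overlapped between *Ets1* and *Erg* and between *Spi1* and *Elf4*, and between no other neighbours. With AAV5-*V1+V2* the order was *Fli1* (30.3 CPM per kb), *Ets1* (12.8), *Elf1* (12.6), *Elf2* (7.82), *Elk3* (7.22), *Gabpa* (6.88), *Spi1* (5.95), *Erg* (5.29), *Elf4* (4.40), and *Ets2* (2.58). Here *Ets1* overlapped with *Elf1*, and each gene from *Elf2* to *Erg* overlapped with the next. These ranges do not pair the genes within a library, so they do not settle the order of these neighbours. *Fli1* was first in both groups. Lengths are the union of all annotated exons, and a gene with many transcripts, such as *Elf2* with 13, may thereby appear lower.

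The sum over 27 genes of the ETS family was 122 ± 2.37 CPM per kb (SD, n = 3) with AAV5-*Gfp* and 180 ± 37.0 CPM per kb (SD, n = 3) with AAV5-*V1+V2*. This sum includes *Etv3l*, which is annotated as a pseudogene. The 10 members held 46.4% of that sum with AAV5-*Gfp* compared to 53.0% with AAV5-*V1+V2*. The share of *Fli1* was 13.1% and 16.7%, that of *Ets1* was 4.12% and 7.06%, and that of *Spi1* was 1.41% and 3.17%. *Elf1* held 7.75% and 7.02%, and *Erg* 3.96% and 2.95%.

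Of the other 17 ETS genes, the pseudogene *Etv3l* included, 13 were tested, 3 were higher, and 0 were lower. By the same rule, 10.1% of all genes tested were higher and 5.27% lower. *Spib*, which encodes the PU.1 relative of B cells, was read 57, 33, and 38 times with AAV5-*Gfp*, against 560, 247, and 253 times with AAV5-*V1+V2* (log2 fold change 3.01, SE 0.41, adjusted p = 0.0144 from edgeR's test). *Spic*, which encodes another PU.1 relative and is known from red pulp macrophages, rose by a log2 fold change of 2.17 (SE 0.38) from low counts of 7 to 9 with AAV5-*Gfp*. *Elk4*, a ternary complex factor like *Elk3*, rose by 0.49 (SE 0.10). Of these 13, 5 were higher without AAV5-*V1+V2* replicate 1 or 3, 1 without AAV5-*Gfp* replicate 1, and 0 without AAV5-*Gfp* replicate 2 or 3, and 1 was lower without AAV5-*V1+V2* replicate 3. The median log2 fold change of the 13 was 0.31, and the values ran from -0.88 to 3.01. *Etv2*, *Etv3l*, *Fev*, and *Elf3* had at most 6 counts in any library and were not tested.

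**Figure D3:**
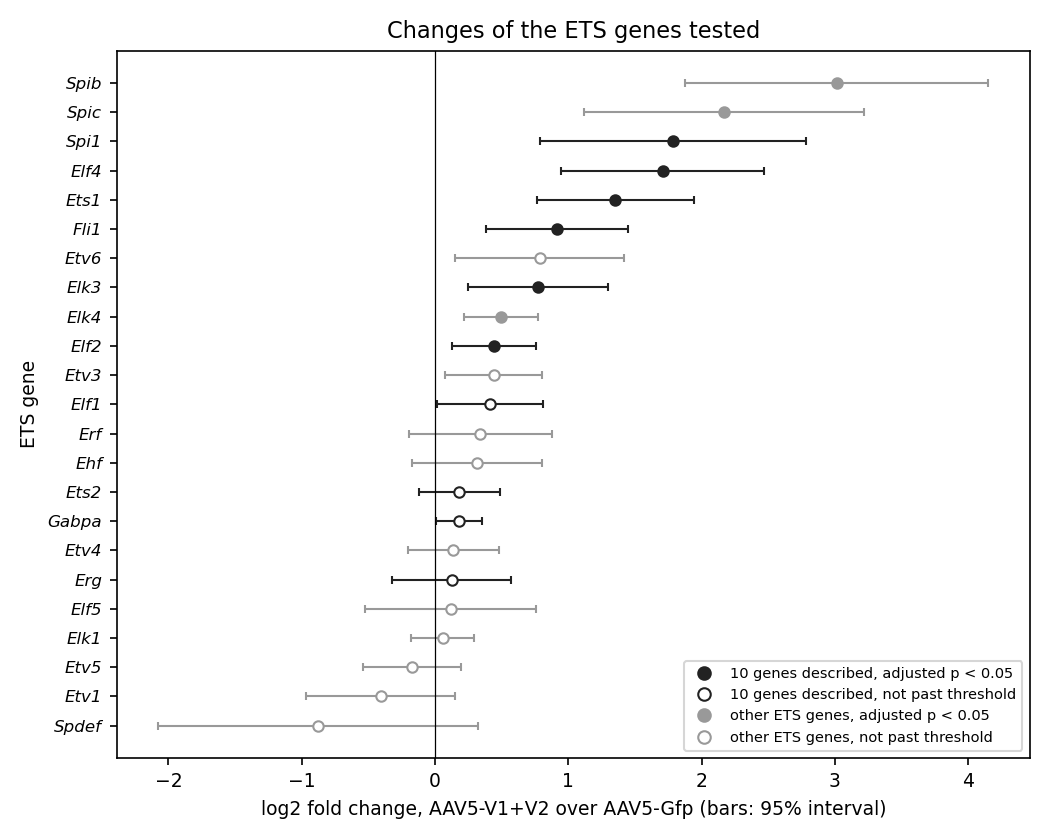
Log2 fold change (AAV5-*V1+V2* over AAV5-*Gfp*) of the 23 ETS genes tested, with 95% intervals from the standard error at 4 degrees of freedom. Filled points passed an adjusted p under 0.05, and the 3 genes of the PU.1 group (*Spib*, *Spic*, and *Spi1*) have the highest values.

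ETS factors bind together with other factors, and 7 of 18 such partners rose and 0 fell, with a median log2 fold change of 0.69. For the counts here, 10.1% of all genes tested were higher and 5.27% lower by the same rule. *Irf4* and *Irf8*, the partners of PU.1 on composite sites, had log2 fold changes of 2.53 (SE 0.23) and 2.56 (SE 0.39), and *Pax5*, a B cell factor that recruits ETS1, of 2.98 (SE 0.37), and all passed in edgeR's test. Of the β subunits that GABPα needs, *Gabpb2* rose (0.53, SE 0.11), whereas *Gabpb1* did not pass (0.31, adjusted p = 0.1001 from edgeR's test). Of 20 genes known as targets of PU.1, 19 rose and 0 fell, with a median log2 fold change of 1.87. Among them were *Ctss*, encoding the protease cathepsin S (3.17, SE 0.50), *Itgb2*, encoding the β2 integrin chain (2.49, SE 0.41), and *Btk*, encoding Bruton's tyrosine kinase (2.07, SE 0.33). Of these 20 genes, 2 are also among the macrophage markers below. Without any one AAV5-*Gfp* library, 0 of the PU.1 targets passed, and 0 to 2 of the partners.

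Of 9 genes known as targets of ELF1, 5 rose and 0 fell, against 10.1% and 5.27% of all genes tested. The median log2 fold change of the 9 targets was 0.69. Those with the smallest p were the T cell genes *Cd4* (3.33, SE 0.42), *Cd247* (2.75, SE 0.36), and *Il2ra* (2.03, SE 0.30). The endothelial genes *Tek* (-0.22), *Nos3* (-0.21), and *Angpt2* (-0.045) did not pass, and neither did *Tal1* (0.43). The other genes that rose were *Lyn*, encoding a kinase of B and myeloid cells, and *Lmo2*, encoding a cofactor known from blood stem cells and endothelium. The list holds 2 of the partners and 1 endothelial marker. Between 0 and 2 of the ELF1 targets passed when AAV5-*Gfp* replicate 1, 2, or 3 was left out. Of 13 nuclear genes known as targets of GABP, 0 rose and 2 fell, against 10.1% and 5.27% of all genes tested. Those that fell were *Cox6a1* (-0.28, SE 0.08) and *Cox5b* (-0.37, SE 0.10). Both encode subunits of cytochrome c oxidase, and *Cox6b1*, another subunit, had a log2 fold change of -0.31 and an adjusted p of 0.0584 in edgeR's test. Of the GABP targets, 0 passed in limma-voom, with scaling by total counts only, without AAV5-*V1+V2* replicate 2, or without any one AAV5-*Gfp* library.

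Most markers of leukocytes, macrophages, T cells, and B cells were higher with AAV5-*V1+V2*, against 10.1% of all genes tested by the same rule. All 6 general leukocyte markers rose (median log2 fold change 2.41), among them *Ptprc* (2.83, SE 0.39), *Cd53* (2.59, SE 0.35), and *Cd52* (2.70, SE 0.39). Their summed level ran from 96.6 to 129 CPM with AAV5-*Gfp*, and from 299 to 667 CPM under AAV5-*V1+V2*. Of 10 macrophage markers 8 rose, with sums from 133 to 183 CPM and from 284 to 513 CPM, with the smallest p for *C1qb*, *C1qa*, and *C1qc* (1.70, 1.93, and 1.78). T cell markers rose in 7 of 8 (4.04 to 9.67 CPM and 37.2 to 78.1 CPM), with the smallest p for *Cd28* (3.26), *Cd5* (3.19), and *Cd3e* (3.88), and B cell markers in 6 of 6 (5.89 to 11.03 CPM and 58.7 to 142 CPM), with the smallest p for *Ms4a1* (5.49), *Cd79b* (3.24), and *Cd22* (3.77). Without AAV5-*Gfp* replicate 2 or 3, 0 markers of these lists passed, and without replicate 1, 3 leukocyte, 4 macrophage, 8 T cell, and 5 B cell markers did. None of the markers of these lists was at 0 in any library of either group.

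Of 14 endothelial markers, which mark cells known for *Erg*, *Fli1*, and *Ets1*, 1 rose (*Pecam1*, 0.88, SE 0.19, also expressed by leukocytes) and 1 fell (*Flt1*, -0.42, SE 0.10). For this list and those that follow, 10.1% of all genes tested were higher and 5.27% lower by the same rule. *Icam2* had 1.04 and an adjusted p of 0.0503 in edgeR's test. The endothelial sum was 287 to 308 CPM with AAV5-*Gfp*, compared with 288 to 342 CPM under AAV5-*V1+V2*. Neuronal markers summed to 8341 to 9047 CPM and to 5341 to 7882 CPM, and 2 of 10 fell (*Rbfox3*, -0.93, SE 0.19, and *Pou4f1*, -0.43, SE 0.10), while *Snap25* was at -0.53 with an adjusted p of 0.0585 in edgeR's test. Of 5 fibroblast markers 1 rose (*Col1a2*, 0.84), with *Pdgfra* at 0.43 and *Col1a1* at 1.18. None of 7 Schwann cell, 3 satellite glia, or 6 erythrocyte markers passed in edgeR's test. At an unadjusted p under 0.05, 1 of each list did, where 19.2% of all genes tested were higher and 15.5% lower. Among the Schwann cell markers, the log2 fold change was 0.25 for *Egr2* and 0.18 for *Prx*. The satellite glia markers were *Kcnj10* (-0.29), *Fabp7* (-0.080), and *Glul* (0.00097), and among the erythrocyte markers the values were 0.61 for *Hba-a2* and 0.25 for *Hbb-bt*. No endothelial, neuronal, or fibroblast marker passed without any one AAV5-*Gfp* library, and 5 neuronal markers were lower without AAV5-*V1+V2* replicate 1. The part that a changed mix of cells has in the values of the ETS genes was not tested.

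AAV5-*V1+V2* replicate 1 was the highest library for all 10 members. Its level over the mean of replicates 2 and 3 was 2.37 for *Spi1*, 1.95 for *Elf4*, 1.67 for *Ets1*, 1.65 for *Fli1*, 1.61 for *Elk3*, 1.43 for *Elf1*, 1.41 for *Erg*, 1.31 for *Elf2*, 1.12 for *Ets2*, and 1.04 for *Gabpa*. The same ratio was 2.06 for the sum of leukocyte markers, 2.45 for PU.1 targets, 1.53 for macrophage markers, 1.15 for endothelial markers, and 0.697 for neuronal markers. Replicate 1 thus stood apart in leukocyte, macrophage, and neuronal markers as well as in most of the ETS genes. For Schwann cell markers the ratio was 1.08.

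*Spi1*, *Erg*, *Fli1*, *Ets1*, and *Elf1* were also set beside cell markers, and the other members were not. The value is the log2 CPM of the gene minus the mean log2 CPM of the markers in the same library. *Spi1* relative to macrophage markers was -1.44, -1.33, and -1.34 with AAV5-*Gfp*, against -0.61, -1.36, and -1.18 with AAV5-*V1+V2*, so that the groups overlapped. *Erg* relative to endothelial markers was from -0.037 to 0.25 and from -0.10 to 0.27 and overlapped as well, with means of 0.069 and 0.057. By contrast, *Fli1* relative to the same endothelial markers was from 1.74 to 1.85 with AAV5-*Gfp* and from 2.33 to 2.92 with AAV5-*V1+V2*, and *Ets1* from 1.23 to 1.504 and from 2.35 to 2.97. *Ets1* relative to T cell markers went the other way, from 5.43 to 6.90 with AAV5-*Gfp* and from 4.08 to 4.42 with AAV5-*V1+V2*. The T cell markers had only 3 (*Cd8a*) to 91 (*Lck*) reads in an AAV5-*Gfp* library, so the AAV5-*Gfp* values are imprecise. *Fli1*, also known from blood cells, was not set beside leukocyte markers. Their median log2 fold change was 2.41, against 0.92 for *Fli1*. For *Elf1*, the values relative to leukocyte markers were from 2.26 to 2.76 and from 0.44 to 1.01, and relative to neuronal markers they were from -2.79 to -2.70 and from -2.34 to -1.22. The rise of the latter values holds both a higher *Elf1* and lower neuronal markers. These differences are given as a description of the libraries.

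**Figure D4:**
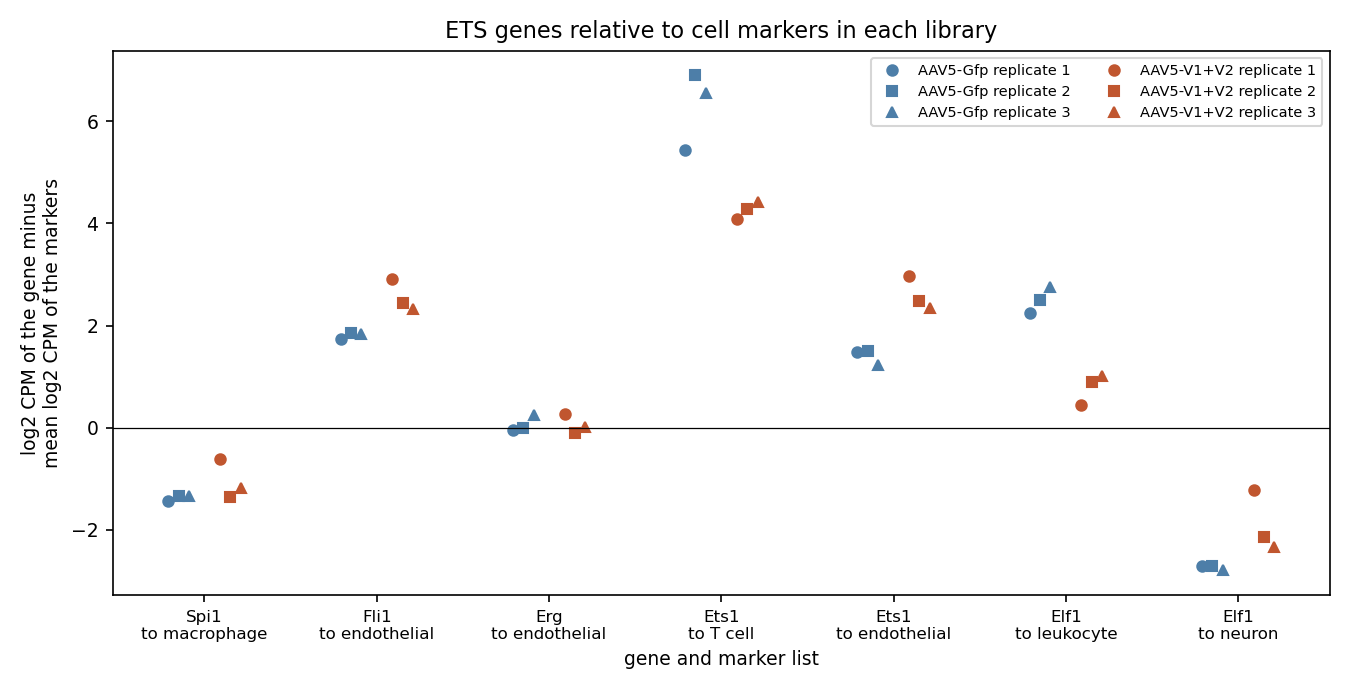
Log2 CPM of a gene minus the mean log2 CPM of a marker list, in each of the 6 libraries. The groups overlap for *Spi1* relative to macrophage markers and for *Erg* relative to endothelial markers, and are apart for the other 5 pairs, with *Ets1* lower relative to T cell markers and higher relative to endothelial markers with AAV5-*V1+V2*.

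By Pearson's r of log2 CPM over the 6 libraries, the genes most like *Elf1* were *Rdh10*, *Map3k3*, *Zfp808*, *Jak2*, and *Nfkb1* (r from 0.9959 to 0.9975), and those most like *Spi1* were *Treml2*, *Vrk2*, *Zfp217*, *Rel*, and *Nab1* (r from 0.9989 to 0.9994). The 6 libraries form 2 groups with replicate 1 apart, and 2328 genes had an r above 0.9 with *Elf1* and 2986 with *Spi1*, so the order among them says little. *Jak2*, a kinase of cytokine receptors, had a log2 fold change of 0.73, and *Nfkb1* and *Rel*, which encode subunits of NF-κB, had 0.57 and 1.22. Of these 10 genes, *Treml2*, *Vrk2*, *Zfp217*, and *Rel* passed the threshold.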

How the data were processed

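Total RNA of microinjected DRGs was made into stranded libraries, 3 for each group. From them the authors deposited 1 table of raw read counts per gene symbol, without normalization and with replicates kept apart. The submitters' processing notes name the builds GRCm38 and mm10, and the aligner, the annotation, and the use of strand are not given in the sources used here. Groups and replicate numbers were taken from the sample titles, and 0 columns were left unused.

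The tests used edgeR 4.0.16 under R 4.3.3 (filterByExpr, TMM, glmQLFit, and glmQLFTest), with adjustment over all 18593 genes tested. Standard errors were the absolute log2 fold change divided by the square root of F. Log2 CPM used a prior count of 0.5. The calculations were tested on simulated counts. Same-numbered libraries had correlations of deviations of 0.0403, 0.0615, and 0.0968, below the 0.1 set for pairing, and chi-square values per degree of freedom within groups were from 8.27 to 48.9, so no library was a copy of another. Alternatives were RLE, upper quartile, and total count scaling, no filter, DESeq2 1.42.0, limma-voom (limma 3.58.1), a replicate block, an adjusted p under 0.1, and leaving out each library.

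The members and the 17 lists of other genes were chosen with earlier results of these data known. The rule for named genes took the members, the 3 genes of each list with the smallest p, and the 5 genes most like *Elf1* and *Spi1*. Some genes that this rule takes are not reported here. Further genes were named after their values were seen. Counts limit the precision, and errors of single libraries cover counting only.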

Additional observations from a re-analysis of the deposited data

How the results depend on the processing

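With all libraries, 6 members were higher. The number was 6 under RLE or upper quartile scaling and with no filter, 7 with total counts only or DESeq2, 5 in limma-voom, and 8 at an adjusted p under 0.1. It ranged from 0 to 7 over the fits that left out one library, with 0 without any of the 3 AAV5-*Gfp* libraries, 4 without AAV5-*V1+V2* replicate 2, and 7 without replicate 1 or 3. The number of lower members was 0 in all of these. *Elf1* was at 0.41 in DESeq2, where it passed, and ranged from 0.22 to 0.54 with a library left out. *Erg* ranged from -0.055 (without AAV5-*V1+V2* replicate 1) to 0.26 (without replicate 2), and all other members kept their sign in the 13 alternatives.

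The replicate numbers of the groups share only a number. With the replicate block, 6 members were higher and *Elf1* was at 0.39. Each AAV5-*Gfp* library correlated best with the AAV5-*V1+V2* library of its own number, which is a hint from the data and not from the design.

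Without AAV5-*Gfp* replicate 2 or 3, 0 genes of any list passed, in fits that called 12 and 15 of all genes higher and 0 lower, so these counts say nothing about the lists. Leaving out AAV5-*Gfp* replicate 1, with 257 of all genes higher, moved PU.1 targets from 19 to 0 higher genes, partners from 7 to 2, ELF1 targets from 5 to 2, leukocyte markers from 6 to 3, and macrophage markers from 8 to 4. Without AAV5-*V1+V2* replicate 3 there were 13 partners and 5 other ETS genes, and without replicate 1 there were 5 other ETS genes. In DESeq2, 11 partners, 5 other ETS genes, 3 fibroblast markers, and 2 endothelial markers were higher, and 5 neuronal markers were lower. With total counts only, 5 other ETS genes and 3 fibroblast markers were higher, and 1 neuronal marker and 0 GABP targets were lower (0 also in limma-voom, and 1 with no filter). Endothelial markers were 2 higher with upper quartile scaling, no filter, or the replicate block. The cause of these shifts was not tested.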

Other observations

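Kinases of the ERK pathway, which phosphorylate ETS1, ETS2, and the ternary complex factors, did not pass in edgeR's test (0 of 6 higher and 0 lower). At an unadjusted p under 0.05, 0 were higher and 1 was lower, against 19.2% and 15.5% of all genes tested. The values were -0.24 for *Mapk3* and 0.12 for *Map2k1* on the log2 scale. The summed level of the 6 kinases was from 673 to 687 CPM with AAV5-*Gfp* and from 648 to 669 CPM with AAV5-*V1+V2*.

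Of 10 feedback genes of ERK signalling, 0 were higher and 0 lower in edgeR's test. At an unadjusted p under 0.05, 4 were higher, against 19.2% of all genes tested. The median log2 fold change of the 10 was 0.071, and the values ran from -0.12 to 0.69. *Spry1*, encoding an inhibitor of receptor tyrosine kinase signalling, had a log2 fold change of 0.69 (adjusted p = 0.0530), *Egr1*, an immediate early gene, of 0.57 (adjusted p = 0.0575), and *Dusp6*, encoding a phosphatase of ERK, of 0.33 (adjusted p = 0.0615). With DESeq2 or the replicate block, 3 of these 10 genes were higher, and with scaling by total counts only, 2 were.

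*Etv6*, a repressor of the ETS family, had 101, 104, and 116 CPM in AAV5-*Gfp* replicates 1, 2, and 3, and 262, 148, and 144 CPM in AAV5-*V1+V2* replicates 1, 2, and 3, so that the groups did not overlap. Its log2 fold change was 0.79, and the adjusted p of 0.0570 from edgeR's test did not pass. *Etv1*, known from proprioceptive neurons, had 129, 115, and 133 CPM and 69.2, 87.9, and 127 CPM in the same order, a log2 fold change of -0.41 with an adjusted p of 0.196 from edgeR's test. Both genes were named after their values were seen.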
